A study of Sus scrofa with 27 samples.

Results

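The complement system was followed here through 9 named genes for its components, regulators and receptors, in pig lung tissue during ex vivo lung perfusion (EVLP), a procedure in which a donor lung is ventilated and perfused outside the body. The members were the rows of the table of gene counts that carry 1 of the 9 names. Of the 31908 genes in that table, 4 carried the name itself (C2, C3, C5AR1 and SERPING1), and 3 more had no name in the table and were matched by their gene identifier (C3AR1, CFB and CFI). C1R and C1S had no row, and no row overlapped their RefSeq positions on chromosome 5 (63644097 to 63655149 and 63670309 to 63681466), so both were left out. All 7 remaining members reached the minimum of 10 counts in at least 1 library and passed the filter on low counts in every comparison.

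The lungs came from Large-White pigs after circulatory arrest and a period of cold ischemia, and were perfused by the Toronto protocol with a solution that contained methylprednisolone, a glucocorticoid, in both groups. In the Gold Standard (GS) group, 5 pigs (9, 17, 44, 55 and 77), part of the perfusate was exchanged at regular intervals. In the Pediatric Dialysis (PD) group, 4 pigs (2, 3, 4 and 5), a dialyzer with a pediatric membrane was placed on the circuit and ran continuously. Each lung was biopsied at 0h (after cold ischemia, before perfusion), 6h and 12h, which gave 27 libraries of bulk lung tissue, 15 GS and 12 PD.

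Complement is a cascade of plasma proteins that tags particles for uptake and recruits leukocytes. The classical and lectin pathways start from recognition molecules and the proteases C1r, C1s and the MASPs. The alternative pathway works through the protease factor B, and all converge on the cleavage of C3. Cleavage also frees the peptides C3a and C5a, which act on the receptors encoded by C3AR1 and C5AR1. Hepatocytes supply the plasma proteins, and in a lung perfused outside the body that supply is cut. Macrophages and alveolar epithelium hold transcripts of several components, among them C3 and CFB, which inflammatory cytokines raise.

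Library depth differed between the groups without overlap: a GS library held 26335584 to 67522703 counts and a PD library 14650700 to 21820935, so depth and the group cannot be told apart. RNA was extracted by 1 of 2 methods, and the labels do not say which library had which. The 100 most abundant genes took 16% to 24.7% of the counts in the GS libraries and 22.5% to 43.9% in the PD libraries. The PD libraries of pig 4 at 0h (43.9%) and pig 2 at 12h (43.1%) stood apart, and the next highest PD library was at 36.6%. Calls that changed without these 2 libraries are given with and without them, as are the correlations named. SFTPC, the surfactant protein of alveolar type 2 cells, was abundant in every library, at 1749 CPM (counts scaled to a common library total) or more.

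In the table, C2 (ENSSSCG00000001422) spans 23995982 to 24034040 and CFB (ENSSSCG00000024914) spans 24020570 to 24041322 on the plus strand of chromosome 7, so the 2 gene models overlap and their counts may share or lose reads. C3 (ENSSSCG00000013551) lies at 72431499 to 72528112 on chromosome 2 and its model contains TNFSF14. SERPING1 (ENSSSCG00000013181) lies on the minus strand of the same chromosome at 13324158 to 13338663. CFI (ENSSSCG00000009138) lies at 112414322 to 112470848 on chromosome 8, and C5AR1 (ENSSSCG00000029371) at 53097164 to 53117020 on chromosome 6. The C3AR1 row (ENSSSCG00000023868) is a short model at 63091198 to 63092627 on chromosome 5, typed as a pseudogene in the table, that covers a part of the longer RefSeq gene. All coordinates are on Sscrofa11.1.

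The sequence just upstream of 3 members is shown, because SERPING1 and C5AR1 were the 2 members that passed the test against 0h and C3 is the point where all pathways meet. Each run is the 250 bases before the RefSeq gene start on Sscrofa11.1, 5′ to 3′ on the strand of the gene. Capitals mark any match, on either strand, to the motifs TTCNNNGAA (GAS), GAAANNGAA (ISRE core), TTNNGNAA (C/EBP), TGANTCA (AP-1) or the NF-kB motif.
C5AR1 (chr6:53096912-53097161, plus strand): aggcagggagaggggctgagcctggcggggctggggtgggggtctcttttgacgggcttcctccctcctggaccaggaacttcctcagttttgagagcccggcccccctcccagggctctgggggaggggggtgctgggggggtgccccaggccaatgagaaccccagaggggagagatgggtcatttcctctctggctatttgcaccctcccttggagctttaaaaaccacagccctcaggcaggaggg
SERPING1 (chr2:13338827-13339076, minus strand): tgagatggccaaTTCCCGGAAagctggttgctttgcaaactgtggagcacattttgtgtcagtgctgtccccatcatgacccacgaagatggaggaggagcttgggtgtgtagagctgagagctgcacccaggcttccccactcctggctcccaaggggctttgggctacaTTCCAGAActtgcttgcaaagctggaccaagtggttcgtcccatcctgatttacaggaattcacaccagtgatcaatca
C3 (chr2:72431220-72431469, plus strand): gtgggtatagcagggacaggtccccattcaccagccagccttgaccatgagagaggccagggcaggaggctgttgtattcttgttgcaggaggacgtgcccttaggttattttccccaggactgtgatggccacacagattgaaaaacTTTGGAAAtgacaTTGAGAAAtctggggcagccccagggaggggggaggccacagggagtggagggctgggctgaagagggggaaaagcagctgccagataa
SERPING1 held 1 GAS match, 238 to 230 bases before the start, and 1 C/EBP match. C3 held 2 C/EBP matches, and C5AR1 held no match to the 5 motifs. Of 19556 windows of the same length before protein-coding genes, 6.1% held a GAS match, 31.7% a C/EBP match, 6.7% an ISRE core, 5.3% an AP-1 match and 12.9% an NF-kB match.

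The first question was which members changed between 0h and 6h or 12h within each group, with each pig compared with its own 0h biopsy (edgeR quasi-likelihood F test with the pig as a block, Benjamini-Hochberg adjusted p under 0.05 over all genes tested). At 6h, 0 of 7 members passed in GS, where 28.5% of 18594 genes did, and 0 of 7 passed in PD, where 0.142% of 15545 genes did. Without adjustment 1 member in GS (C5AR1) and 0 in PD were under 0.05 at 6h, and DESeq2 called 0 in both. At 12h, 2 of 7 passed in GS (38.4% of all genes), SERPING1 higher and C5AR1 lower, and 1 of 7 passed in PD (5.98% of all genes), C5AR1 lower. The GS count at 6h, 5295 genes, was 2720 without GS pig 44. The PD share is unstable: its 930 genes at 12h became 0 without pig 3 or pig 5, 399 without pig 4, 4000 without pig 2, 3561 without the 2 libraries that stood apart, 4 with only the 2 time points and 2697 by DESeq2. Without the PD libraries of pig 4 at 0h and pig 2 at 12h the counts in PD were again 0 at 6h and 1 at 12h. The median log2 fold change of the 7 members at 12h was 0.14 in GS and 0.04 in PD, beside −0.08 and −0.05 for all genes tested. Between 6h and 12h no member passed in either group, and 0% of all genes did. DESeq2 called 6 genes in GS and 205 in PD. With all libraries in one fit edgeR called 492 in PD, among them C5AR1 (−1.10, adjusted p = 0.041). Without adjustment 0 members in GS and 1 in PD were under 0.05 there (C5AR1, log2 fold change −1.11, SE 0.37, adjusted p = 0.408 by edgeR), and DESeq2 called 0 in both.

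**Figure D1:**
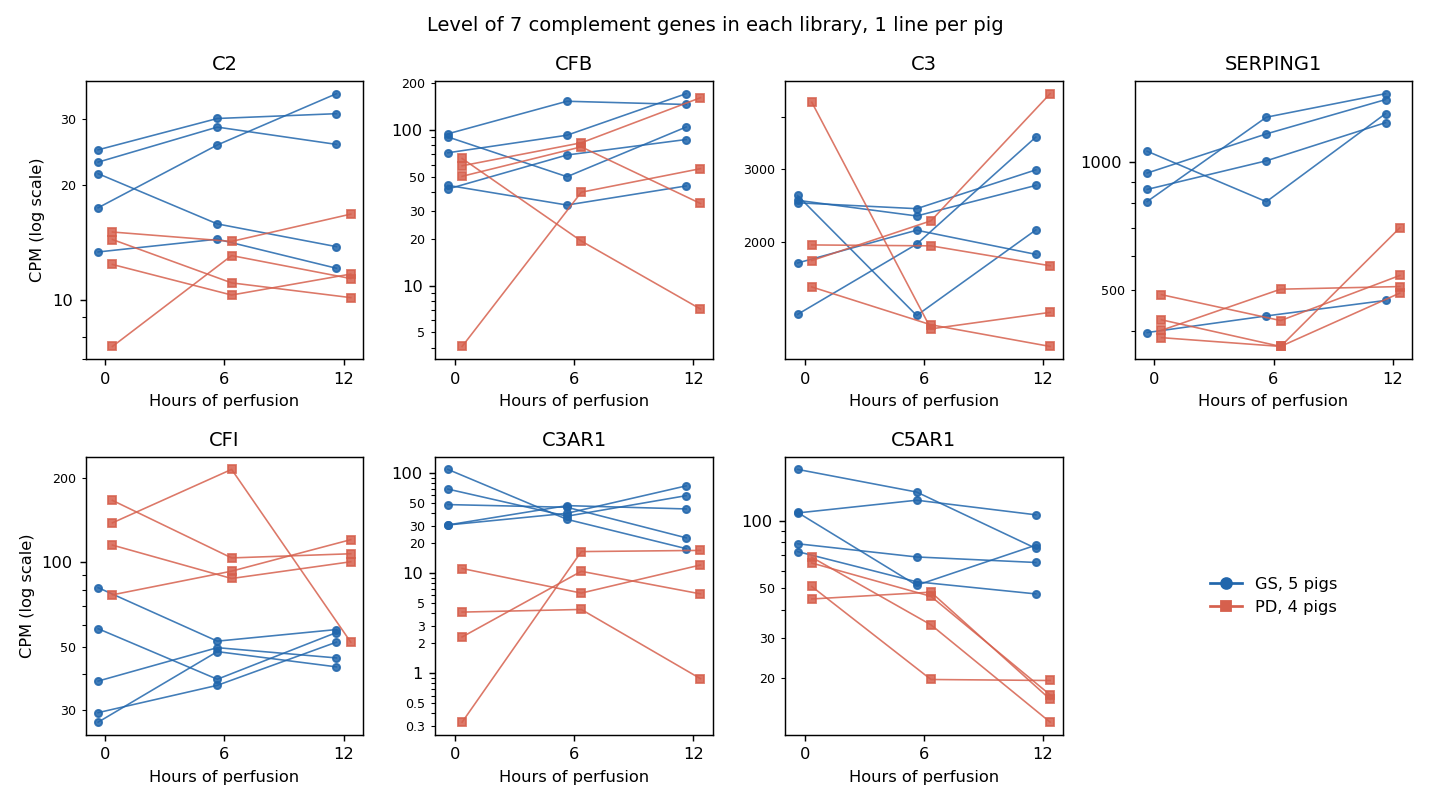
Level of each of the 7 members in every library, in CPM on a log scale, against hours of perfusion. Each line joins the 3 biopsies of 1 pig, circles are the 5 GS pigs and squares the 4 PD pigs. C5AR1 falls in every pig by 12h, CFI is higher and C3AR1 lower in the PD pigs, and the lines of PD pigs 2 and 4 for C3, CFB and C3AR1 swing widely.

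C5AR1 encodes the receptor for C5a on neutrophils, monocytes and macrophages, through which these cells are attracted and activated. In GS its level at 0h was 72.9, 109, 169, 78.9 and 108 CPM in pigs 17, 9, 44, 55 and 77, and at 12h it was 47.3, 77.8, 75.3, 65.2 and 106 CPM in the same order. In PD it was 44.9, 64.8, 51.0 and 68.7 CPM at 0h in pigs 2, 3, 4 and 5, and 16.1, 16.9, 19.5 and 12.8 CPM at 12h. The level was lower at 12h than at 0h in all 9 pigs. Of 17884 genes, 14.9% moved in 1 direction in all 9 pigs at 12h.

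The fitted change at 12h was −0.58 on the log2 scale in GS (SE 0.18, adjusted p = 0.0217, edgeR) and −1.80 in PD (SE 0.37, adjusted p = 0.0253), a level 0.667 and 0.288 times that at 0h. At 6h the PD pigs were split, with 48.1, 46.1, 19.7 and 34.5 CPM in pigs 2, 3, 4 and 5. Pig 4 had fallen to its 12h level by then, while pig 2 stood at its 0h level. The GS call was lost without pig 17 (edgeR adjusted p = 0.0778) or pig 44 (0.0992), and the PD call without pig 3 (0.219) or pig 5 (0.289), with the fitted change between −0.69 and −0.43 in GS and between −1.93 and −1.58 in PD. In edgeR the GS call was also lost with no replicate block (−0.61, adjusted p = 0.185) or all libraries in one fit (−0.55, 0.132). The PD call was lost with only the 2 time points (−1.80, adjusted p = 0.111). Without the libraries of pig 4 at 0h and pig 2 at 12h the PD change was −1.72 (adjusted p = 0.00598).

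Whether C5AR1 fell further under dialysis was asked of the log2 ratio of 12h to 0h in each pig. The ratios were −1.47, −1.94, −1.38 and −2.42 in PD pigs 2, 3, 4 and 5, and −0.62, −0.48, −1.16, −0.28 and −0.03 in GS pigs 17, 9, 44, 55 and 77. The 4 PD values all lay below the 5 GS values, a separation that 2.13% of 17884 genes showed at 12h. The mean was −1.81 ± 0.48 (SD, n = 4) in PD and −0.51 ± 0.43 (SD, n = 5) in GS, and the difference of −1.29 had an exact two-sided permutation p of 0.0159 over 126 splits of the pigs, unadjusted and the lowest of 14 such tests (7 members at 2 times). Across all genes the interaction of group and time did not pass for C5AR1 (−1.23 on the log2 scale, SE 0.37, p = 0.00335, adjusted p = 0.677, edgeR), and a Wilcoxon test on rlog values, modelled on that of the study, gave an exact p of 0.0317 (adjusted over all genes 0.786, with 0 of 17884 genes passing). The smallest exact p that 4 against 5 pigs allow is 0.0159, so the adjusted value of this test says little. The exact p of 0.0317 lies above that limit, so the separation seen in the CPM ratios was not complete on the rlog scale. The study itself reported genes that passed its unpaired Wilcoxon test on fold changes after adjustment. The count of 0 genes belongs to the version run here. No member passed the interaction at 6h or 12h, where 0% of all 17884 genes passed at either time. Without PD pig 2 the interaction was past the threshold for 254 genes at 6h and 153 at 12h, and by DESeq2 for 13 and 27. At an unadjusted p under 0.05 the count of members was 0 at 6h and 1 at 12h, and DESeq2 called 0 at both.

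**Figure D2:**
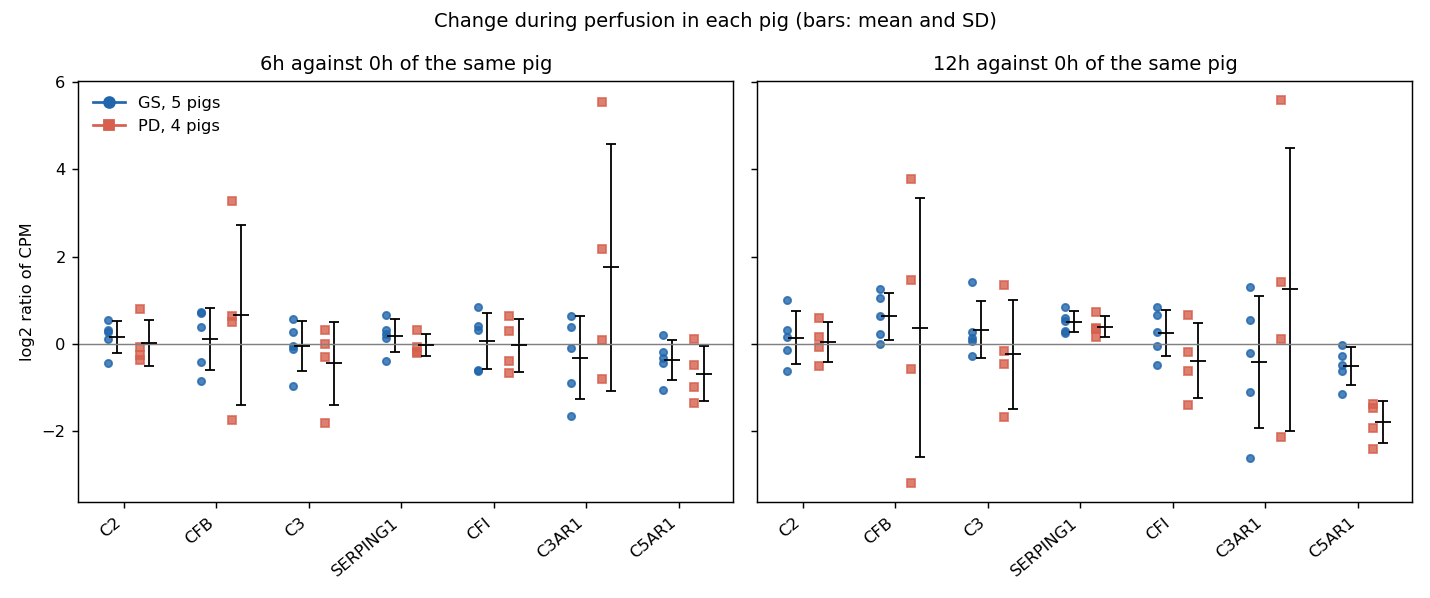
log2 ratio of the level at 6h (left) and 12h (right) to that at 0h of the same pig, for the 7 members. Points are pigs (circles GS, squares PD), and bars give the mean and SD of 5 GS and 4 PD pigs. At 12h the PD points for C5AR1 lie between −2.42 and −1.38, below all GS points, while for the other members the groups overlap.

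Because the tissue is bulk, fewer cells with the receptor and less RNA per cell cannot be told apart. Markers of the cells that carry C5AR1 were read beside it, and their part in its change was not tested. The summed level of 9 neutrophil markers in PD was 1193 to 2079 CPM at 0h, and at 12h it was 600, 910 and 629 CPM in pigs 3, 4 and 5 but 2695 CPM in pig 2. In pig 2 the log2 ratio of the neutrophil sum at 12h to 0h was 1.17 and that of C5AR1 −1.47. That 12h library is 1 of the 2 that stood apart, with 1.65% mitochondrial counts against 4.97% to 11.6% in the other PD libraries, and its summed red cell and alveolar type 2 markers were also above those at 0h (log2 ratios 2.70 and 1.08). Most of its neutrophil sum came from S100A8, S100A9, S100A12 and FCGR3A, whereas CSF3R, the receptor of the neutrophil growth factor G-CSF, was at 19.2 to 43.5 CPM in PD at 0h and 17.4 to 21.3 CPM at 12h. CXCR2, a chemokine receptor of neutrophils, was at 15.6 to 35.1 CPM in PD at 0h and 7.67 to 10.7 CPM at 12h. Its change did not pass in PD (log2 fold change −1.37, SE 0.41, adjusted p = 0.0687, edgeR). In GS CXCR2 fell (−0.74, SE 0.27, adjusted p = 0.0465), whereas the median of CSF3R there was 62.4 CPM at 0h and 75.1 CPM at 12h. In GS the neutrophil sum was 388 to 804 CPM at 0h and 379 to 838 CPM at 12h, and its log2 ratio lay between −0.04 and 0.70, with C5AR1 lower in all 5 of those pigs. Of the 9 markers, 2 passed in GS at 12h, both lower, and 0 passed in PD, beside 38.4% and 5.98% of all genes. The median log2 fold change of the 9 was 0.18 in GS and −0.78 in PD. The sum of 9 monocyte and macrophage markers had a log2 ratio of −0.59 to 0.59 in PD and −0.09 to 0.62 in GS. Of these, 1 of 9 passed in GS at 12h (CD14, higher) and none in PD. Of 6 lymphocyte markers 5 fell in GS (median log2 fold change −0.70) and 2 in PD (−0.57) at 12h. The red cell sum had a median log2 ratio of −0.93 in GS, lower in 4 of 5 pigs, and −3.79 in PD, lower in 3 of 4, and of its markers tested 1 of 2 fell in GS and 0 of 3 passed in PD.

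**Figure D3:**
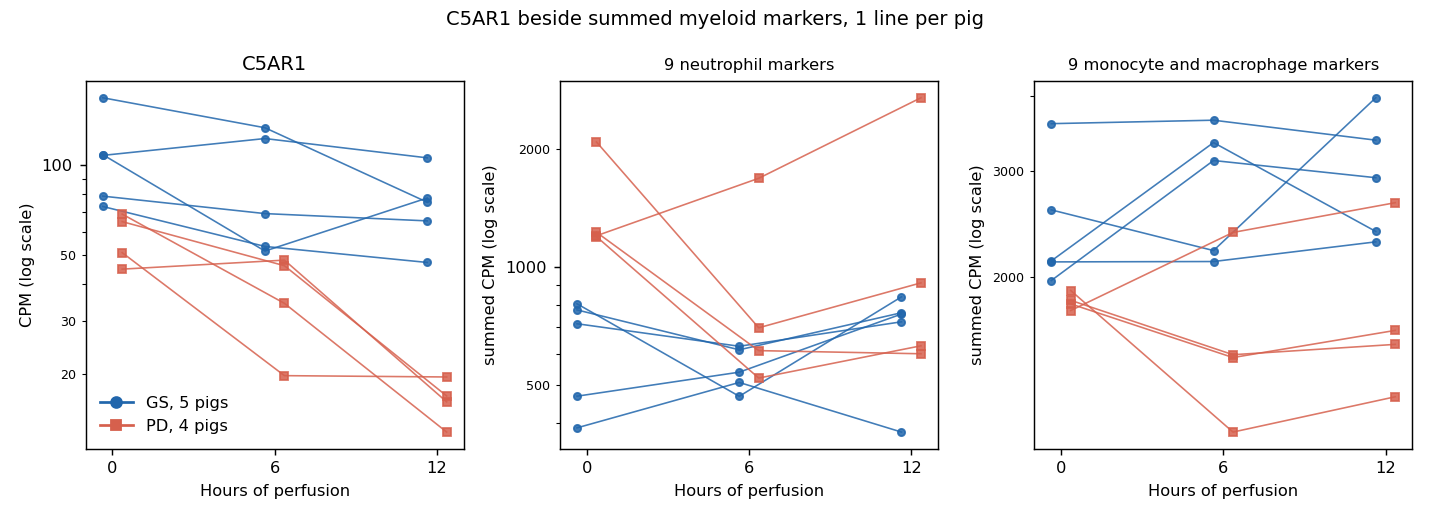
Level of C5AR1 (left), summed level of 9 neutrophil markers (middle) and summed level of 9 monocyte and macrophage markers (right) in each library, in CPM on log scales, against hours of perfusion, with 1 line per pig. C5AR1 is lower at 12h than at 0h in all 9 pigs. The neutrophil sum, most of it S100A8, S100A9, S100A12 and FCGR3A, reaches 2695 CPM in PD pig 2 at 12h, a library that stood apart.

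The genes whose level followed that of C5AR1 most closely within pigs, among 12866 genes with a symbol and a mean of at least 1 CPM, were PIP4K2A (Pearson r = 0.922), CCDC115 (0.914) and ZC4H2 (0.913). These are correlations over 27 libraries of log2 CPM centred on each pig, and the libraries share depth and cell makeup. Without the 2 PD libraries that stood apart (25 libraries, chosen after seeing the data) they were 0.887, 0.913 and 0.881.

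SERPING1 encodes C1 inhibitor, which blocks C1r, C1s and the MASPs and also restrains the contact system. Its level in GS was 396, 1062, 808, 863 and 943 CPM at 0h in pigs 17, 9, 44, 55 and 77, and 471, 1304, 1454, 1242 and 1408 CPM at 12h. In PD it was 424, 401, 385 and 486 CPM at 0h in pigs 2, 3, 4 and 5, and 700.02, 508, 490 and 540 CPM at 12h. The level was higher at 12h in all 9 pigs, and 14.9% of 17884 genes moved in 1 direction in all 9 pigs. GS pig 17 stood well below the other GS pigs at both times. Its libraries also had the lowest mitochondrial share of the GS libraries, 2.41% to 3.14% against 5.74% to 9.49%, and the part of this in its SERPING1 level was not tested.

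The fitted change at 12h was 0.42 in GS (SE 0.13, adjusted p = 0.0227, edgeR) and 0.41 in PD (SE 0.31, adjusted p = 0.44). The mean log2 ratio was 0.50 ± 0.24 (SD, n = 5) in GS and 0.39 ± 0.24 (SD, n = 4) in PD, and the difference had an exact two-sided permutation p of 0.524. The GS call was lost without pig 44 (adjusted p = 0.0868), 55 (0.0815) or 77 (0.0757). In edgeR it was also lost with no replicate block (0.45, adjusted p = 0.376) or all libraries in one fit (0.45, 0.111). At 6h the level was 433 to 1279 CPM in GS and 367 to 501 CPM in PD, with no change that passed (log2 fold change 0.15 in GS and −0.06 in PD). The genes most like it within pigs were MKRN1 (r = 0.911 over 27 libraries), ENO1 (0.875) and SNAPC2 (0.870), and over the 25 libraries these were 0.881, 0.842 and 0.828.

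C3, the central component whose cleavage yields C3a and C3b, did not pass in any of the 11 comparisons. Its level was 1335 to 2587 CPM in GS at 0h and 1864 to 3580 CPM at 12h, where it was higher in 4 of 5 pigs (log2 fold change 0.23, SE 0.21, adjusted p = 0.403, edgeR). In PD it was 1801, 1965, 4345 and 1555 CPM at 0h in pigs 2, 3, 4 and 5, and 4557, 1750, 1350 and 1117 CPM at 12h. The 2 high values belong to the 2 PD libraries that stood apart. Without them the level at 12h was lower in PD than in GS (log2 fold change −0.84, adjusted p = 0.0417), against −0.11 (SE 0.46, adjusted p = 0.885) with them. The genes most like C3 within pigs were DNASE2 (r = 0.943 over 27 libraries), C1RL (0.902) and C1orf53 (0.886). Over the 25 libraries without those 2 they were 0.864, 0.722 and 0.668.

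CFB encodes factor B, the protease of the alternative pathway convertase, and C2 the corresponding protease of the classical pathway. Neither passed against 0h in GS or PD. CFB in GS was 41.8 to 94.6 CPM at 0h and 43.7 to 171 CPM at 12h, higher in 4 of 5 pigs (log2 fold change 0.53, SE 0.22, adjusted p = 0.074, edgeR). DESeq2 placed this change past the threshold (0.59, adjusted p = 0.04), as did edgeR without GS pig 9 (0.74, 0.0296) or pig 77 (0.65, 0.038) and a fit of only the 2 time points (0.61, 0.0465). In PD the level was 65.6, 58.9, 4.07 and 50.4 CPM at 0h in pigs 2, 3, 4 and 5, and 7.08, 161, 56.5 and 33.7 CPM at 12h. The 2 values below 10 CPM again came from pig 4 at 0h and pig 2 at 12h, and their counts were 75 and 72. The PD log2 ratios of CFB at 12h had a mean of 0.36 ± 2.97 (SD, n = 4), with 2 pigs higher and 2 lower. Its spread rests on those 2 libraries: the ratio was −3.20 in pig 2 and 3.79 in pig 4, against 1.45 in pig 3 and −0.58 in pig 5. Within pigs CFB was most like DNM2 (r = 0.914 over 27 libraries), SFTPA1 (0.906) and CLDN18 (0.905), of which SFTPA1 is the alveolar surfactant protein A and CLDN18 an epithelial junction protein. Without the 2 libraries these were 0.716, 0.814 and 0.769.

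C2 stayed between 7.53 and 34.9 CPM in all 27 libraries. Its fitted change at 12h was 0.06 in GS (SE 0.18) and 0.04 in PD (SE 0.33), and the log2 ratios ran from −0.64 to 0.998 in GS and from −0.51 to 0.59 in PD. The closest genes by pattern were HLA-DOB (r = 0.795 over 27 libraries), IL2RG (0.795) and VDR (0.784), and over the 25 libraries they were 0.723, 0.863 and 0.764.

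CFI encodes factor I, the protease that inactivates C3b and C4b. In GS its level was 37.9, 81.4, 29.3, 27.1 and 58.2 CPM at 0h in pigs 17, 9, 44, 55 and 77, and 42.6 to 57.8 CPM at 12h. In PD it was 138, 166, 76.8 and 115 CPM at 0h in pigs 2, 3, 4 and 5, 87.7 to 214 CPM at 6h, and 52.1, 107, 121 and 100.6 CPM at 12h. Neither group had a change that passed (at 12h 0.14, SE 0.21, in GS and −0.31, SE 0.40, in PD), and the lowest PD value at 12h was pig 2. CFI was most like CCDC73 (r = 0.871 over 27 libraries), PAIP1 (0.866) and JCHAIN (0.848), the last a gene of plasma cells, and without the 2 libraries these were 0.738, 0.691 and 0.659.

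C3AR1 encodes the receptor for C3a. In GS its level was 69.4, 30.4, 109, 30.4 and 48.6 CPM at 0h in pigs 17, 9, 44, 55 and 77, and 59.6, 74.7, 17.6, 43.9 and 22.6 CPM at 12h. In PD it was 4.09, 11.2, 0.325 and 2.31 CPM at 0h in pigs 2, 3, 4 and 5, and 0.885, 12.1, 16.9 and 6.22 CPM at 12h. The values of 0.325 and 0.885 CPM rest on 6 and 9 counts. No change against 0h passed (at 12h −0.49, SE 0.44, in GS and 0.73, SE 0.93, in PD), and the pigs of each group moved in both directions. Over the 27 libraries its log2 level within pigs ran opposite to that of C3 (Pearson r = −0.859), and without the 2 PD libraries that stood apart r was −0.632. Other pairs of members also rested on them: between C3AR1 and CFB r was 0.628 with them and −0.173 without, between C3 and CFB −0.513 and 0.362, between C3 and CFI −0.150 and 0.667, and between CFB and CFI 0.514 and 0.175. Its closest genes were CTTNBP2NL (r = 0.950), TBL1XR1 (0.931) and PIK3AP1 (0.930), at 0.822, 0.723 and 0.775 without the 2 libraries.

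The second question was how far the members differed between PD and GS lungs at the same time, from the 9 libraries of that time (edgeR, adjusted p under 0.05). The 0h biopsies were taken before perfusion, so a difference at 0h preceded the dialysis. The groups also differ in library depth at every time, and the PD lungs were perfused for an earlier study of the same laboratory, so group and batch cannot be told apart in these comparisons. At 0h, 4 of 7 members passed (40.6% of 16477 genes tested did), at 6h 5 of 7 (24.3% of 16201) and at 12h 3 of 7 (20.1% of 16431). The shares at 6h and 12h are unstable. The 3933 genes at 6h became 1846 without PD pig 2. The 3308 genes at 12h became 4982 without PD pig 2, 2114 without PD pig 5 and 5611 in one fit of group and time over all libraries.

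CFI was the only member that passed as higher in PD, by 1.48 on the log2 scale at 0h (SE 0.34, adjusted p = 0.00452), 1.49 at 6h (SE 0.31, 0.00543) and 0.99 at 12h (SE 0.29, 0.0313). At 6h its PD libraries all lay above the GS libraries, as 21.3% of all genes tested were separated in 1 direction or the other. At 0h the groups overlapped through PD pig 4 and GS pig 9, and at 12h through PD pig 2. The call at 12h was lost in 7 of the 9 fits that left out 1 pig, with the fold change between 0.87 and 1.18.

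C3AR1 was lower in PD, with a log2 fold change of −3.61 at 0h (SE 0.74, adjusted p = 0.00241), −2.09 at 6h (SE 0.37, 0.00271) and −2.20 at 12h (SE 0.69, 0.0432). Its groups did not overlap at 0h, 6h or 12h, a separation that 34.1%, 21.3% and 22% of all genes tested showed at these times, although at 12h the highest PD library (16.9 CPM) was just below the lowest GS library (17.6 CPM). The call at 12h was lost in 6 of the 9 fits without 1 pig.

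For C5AR1 the log2 fold change was −0.82 at 0h (SE 0.26, adjusted p = 0.0241), −1.18 at 6h (SE 0.37, 0.0354) and −2.07 at 12h (SE 0.33, 0.00212), lower in PD each time. The groups were apart at 0h, 6h and 12h, as were 34.1%, 21.3% and 22% of all genes tested at these times. At 0h the highest PD library (68.7 CPM) was close to the lowest GS library (72.9 CPM). The call at 12h held in each of the 9 fits without 1 pig, and that at 0h was lost without PD pig 2 (adjusted p = 0.0725). The call at 6h was lost without PD pig 2, 4 or 5 or GS pig 44 or 77 (adjusted p up to 0.0847).

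SERPING1 passed as lower in PD at 0h (−0.86, SE 0.27, adjusted p = 0.0235) and 6h (−1.151, SE 0.32, 0.0206), and had a value of −0.95 at 12h that did not pass (SE 0.37, 0.0875). Each of the 2 calls was lost in 3 of the 9 fits without 1 pig. GS pig 17 was within the PD range at 0h and 6h and below it at 12h, so the groups overlapped. Without GS pig 17 the difference at 12h passed (−1.14, adjusted p = 0.0258), and it also passed without PD pig 2 (−1.12, 0.0292).

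At 6h all 4 PD libraries of C2 (10.3 to 14.2 CPM) were below the GS libraries (14.4 to 30.0 CPM), a separation that 21.3% of all genes tested showed. C2 passed as lower in PD at that time (log2 fold change −0.88, SE 0.30, adjusted p = 0.046). This call was lost in 7 of the 9 fits without 1 pig. At 0h and 12h the fold change was −0.62 (SE 0.26, adjusted p = 0.0715) and −0.78 (SE 0.39, 0.182). C3 and CFB passed at no time, with fold changes of 0.28, −0.25 and −0.11 for C3 and −0.55, −0.50 and −0.69 for CFB at 0h, 6h and 12h.

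**Figure D4:**
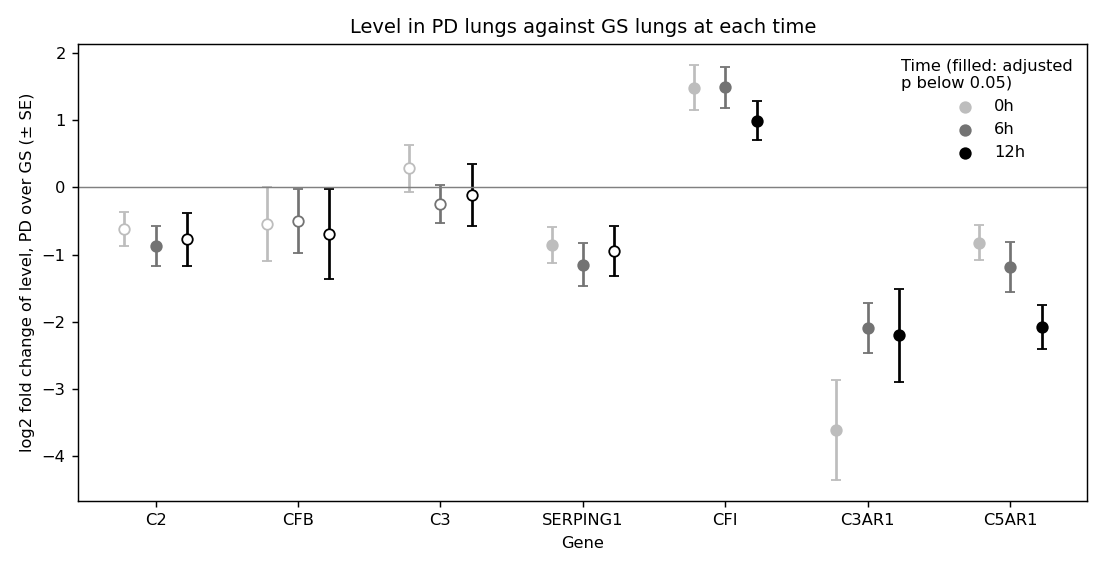
log2 fold change of the level in PD lungs over GS lungs (4 against 5 libraries) for each member at 0h (light grey), 6h (grey) and 12h (black), with the SE of the fit. Filled points passed an adjusted p of 0.05. CFI lies above 0 at all 3 times, C3AR1 and C5AR1 lie below 0 at all 3 times. C5AR1 is at −0.82, −1.18 and −2.07 at the 3 times.

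Some markers of other cells differed between the groups at 0h, and their part in these differences was not tested. Of all genes 40.6% passed at that time. The red cell sum was 51 to 224 CPM in PD against 0.354 to 10.6 CPM in GS, and 1 of the 2 tested was higher in PD. Of 6 lymphocyte markers 1 was higher and 2 lower in PD (median log2 fold change −0.54). Of the alveolar type 1 markers 3 of 6 were higher and 0 lower, of the hepatocyte markers 1 of 3 higher and 0 lower, of the endothelial markers 2 of 6 higher and 2 lower, and of the fibroblast markers 2 of 7 higher and 3 lower. The sum of the alveolar type 2 markers was 25510 to 72820 CPM in PD and 6501 to 9407 CPM in GS. That difference was mostly SFTPC (18732 to 70690 CPM against 2689 to 4518 CPM), and of the 5 markers tested 1 was higher (SFTPC) and 1 lower in PD (SFTPB, log2 fold change −1.35, SE 0.38, adjusted p = 0.0132, edgeR). The neutrophil sum was 1193 to 2079 CPM in PD against 388 to 804 CPM in GS. Of its 9 markers 4 were higher in PD (S100A8, S100A9, S100A12 and FCGR3A) and 1 lower (CSF3R, −1.36, SE 0.39, adjusted p = 0.0156). The monocyte and macrophage sum was 1762 to 1902 CPM in PD and 1976 to 3600 CPM in GS, with 1 of 9 markers higher and 2 lower in PD.

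The rest of the complement system was read from 39 other genes in 4 lists, chosen with earlier results of these data known. A row was found for 36 of them, and 31 were tested in GS and 30 in PD (MBL2, C8A, C8B, CPN1 and CPN2 were too low in both, CSMD1 in PD). In GS, 2 rose and 1 fell at 6h, and 4 rose and 1 fell at 12h, where 28.5% and 38.4% of all genes passed. In PD 0 of 30 passed at 6h (MASP2 did by DESeq2) and 1 rose at 12h, where 0.142% and 5.98% of all genes passed. The median log2 fold change of the tested genes at 12h was 0.06 in GS and −0.25 in PD, beside −0.08 and −0.05 for all genes. In the comparison of the changes between the groups 0 of 30 passed by edgeR at 6h or 12h. Between the levels of PD and GS, 6 of the 30 were higher and 5 lower in PD at 0h, 2 and 6 at 6h, and 1 and 4 at 12h, beside 40.6%, 24.3% and 20.1% of all genes in either direction.

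**Figure D5:**
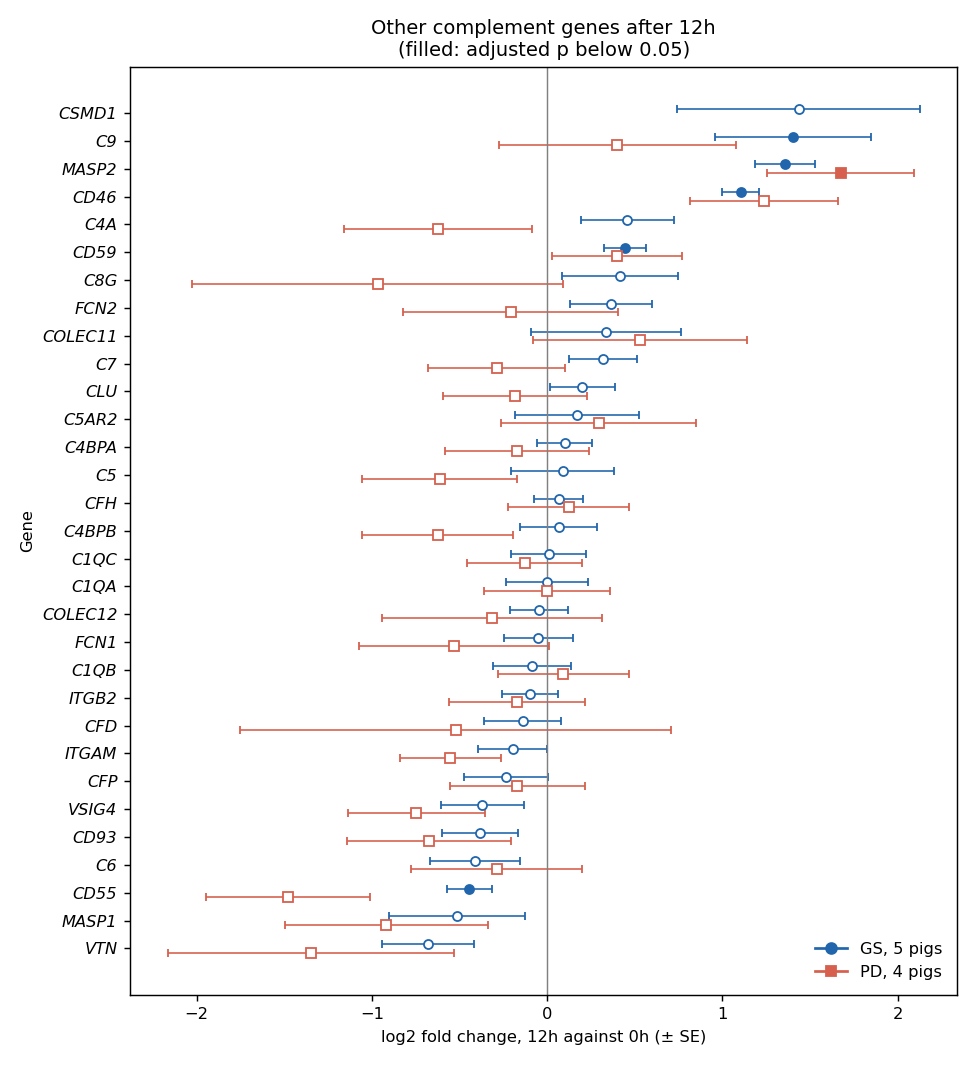
log2 fold change of 12h against 0h with its SE for the 31 other complement genes tested, in GS (circles) and PD (squares), ordered by the GS value. Filled points passed an adjusted p of 0.05: MASP2 in both groups, and C9, CD46, CD59 and CD55 in GS.

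MASP2, the lectin pathway protease that cleaves C4 and C2, rose in both groups. Its level was 6.999 to 17.8 CPM in GS at 0h and 18.1 to 34.1 CPM at 12h (log2 fold change 1.36, SE 0.17, adjusted p = 0.000176, edgeR). In PD it was 2.98 to 7.05 CPM at 0h and 7.37 to 19.1 CPM at 12h (1.67, SE 0.42, adjusted p = 0.0409). In both groups the lowest 12h library was close to the highest 0h library. The rise in GS was already present at 6h (1.504, SE 0.17, adjusted p = 0.00024). The PD call was lost without pig 3 (adjusted p = 0.284), 4 (0.121) or 5 (0.34), and passed without the 2 libraries that stood apart (1.79, 0.00372).

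CD46, CD55 and CD59 encode proteins that protect the cell's own membrane: CD46 is a cofactor for factor I, CD55 speeds the decay of the convertases and CD59 blocks the membrane attack complex. In GS, CD46 rose from 155 to 208 CPM at 0h to 372 to 422 CPM at 12h (1.10, SE 0.11, adjusted p = 5.59e-05, edgeR). The PD pigs had 156 to 245 CPM at 0h and 220 to 844 CPM at 12h (1.24, SE 0.42, adjusted p = 0.103), a change that passed in DESeq2 (adjusted p = 0.027) and without the 2 PD libraries that stood apart (0.0128). CD59 rose in GS at 12h (0.44, SE 0.12, adjusted p = 0.0106), and CD55 fell (−0.44, SE 0.13, adjusted p = 0.0156). The CD59 call was lost without GS pig 17 (adjusted p = 0.0512) and the CD55 call without GS pig 44 (0.0995). In PD the values were 0.40 (SE 0.37) for CD59 and −1.48 (SE 0.47, adjusted p = 0.0827) for CD55, neither of which passed, although CD55 did in DESeq2 (−1.43, adjusted p = 0.0226) and without the same 2 libraries (−1.16, 0.0161). CD59 was also higher in PD than in GS at 0h (1.84, SE 0.20, adjusted p = 4.84e-05), with 164 to 288 CPM against 63.7 to 82.5 CPM.

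C9, the protein that forms the membrane attack pore, rose in GS at 12h (1.40, SE 0.45, adjusted p = 0.0249, edgeR) from a level of 0.140 to 0.785 CPM at 0h to 0.521 to 3.83 CPM, and so stayed close to the lower limit of what these libraries can show. This call was lost without GS pig 17 (adjusted p = 0.0598), 44 (0.13) or 55 (0.101). C5, the source of C5a, had log2 fold changes of 0.09 (SE 0.29) in GS and −0.61 (SE 0.44, adjusted p = 0.426) in PD at 12h, and was higher in PD at 0h (1.39, SE 0.30, adjusted p = 0.00316). C5AR2, the second C5a receptor, was lower in PD than in GS at 0h, 6h and 12h (−1.88, −1.46 and −1.90, adjusted p = 0.00437, 0.0394 and 0.0466). Its fitted changes at 12h against 0h were above 0, where those of C5AR1 were below, and did not pass (0.17, SE 0.35, adjusted p = 0.72 in GS and 0.29, SE 0.56, adjusted p = 0.79 in PD).

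Signals known to drive complement transcription were read beside the members. Of 15 such genes (cytokines, their receptors and transcription factors, chosen with earlier results known), 9 rose and 1 fell in GS at 6h, and 9 rose and 1 fell at 12h, not all of them the same genes (28.5% and 38.4% of all genes passed). In PD 2 rose at 6h and 4 at 12h (0.142% and 5.98% of all genes). IL6 rose by 2.13 in GS (SE 0.46, adjusted p = 0.00357) and by 4.51 in PD (SE 0.47, adjusted p = 0.0054) at 12h, on the log2 scale. IRF1, the interferon-induced transcription factor, rose by 1.16 in GS (SE 0.33, adjusted p = 0.0139) and 2.86 in PD (SE 0.41, adjusted p = 0.0149). IL1B rose in PD (3.03, SE 0.72, adjusted p = 0.0351) and had a value of −0.29 (SE 0.66) in GS. IL1B was also lower in PD than in GS at 0h (−1.21, SE 0.43, adjusted p = 0.0396). After adjustment over all genes, the change from 0h to 12h was not shown to differ between the groups for IL6, IRF1 or IL1B (interaction in edgeR, adjusted p = 0.629, 0.677 and 0.677). The fitted rise was larger in PD for each, by 2.37 (SE 0.66), 1.66 (SE 0.52) and 3.28 (SE 1.05) on the log2 scale. Without adjustment each was under 0.05 in the same test. The paper tested cytokine genes singly and reported higher PD ratios of IL6 and IL1B at 12h. It also reported a higher fold change of IRF1 in PD at 12h.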

How the data were processed

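Lung biopsies from 9 pigs gave 27 RNA-seq libraries. The deposited table holds raw counts per gene, which the authors made, per their methods and processing notes, with cutadapt (1.15), TopHat2 (2.0.14) on Sscrofa11.1 and featureCounts of Subread (1.6.0). How reads on overlapping genes or either strand were counted is not given in the sources used here. Members were matched by symbol or gene identifier. Members and gene lists were chosen with earlier results of these data known.

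Counts were tested with edgeR (4.0.16, R 4.3.3) by the robust quasi-likelihood F test after filterByExpr and TMM scaling, with Benjamini-Hochberg adjustment over all genes and a threshold of 0.05. Within a group the pig was a block, since the 3 biopsies came from the same lung. Residuals of the same pig correlated by 0.526 on average in GS and 0.109 in PD. The change between groups was the interaction of group and time over 27 libraries, and levels were compared among the 9 libraries of a time. CPM use TMM library sizes, and log2 ratios add 0.5 counts. Named genes were the members, the other complement genes that passed, and for each member the 3 genes most alike. C5, C5AR2, the markers and the inducers named were chosen after their values were seen, and some single genes of the lists are not reported here. DESeq2 (1.42.0), its size factors, no filter, other blocks and sample sets, a fold threshold of 2, and each pig left out were the alternatives. The edgeR script was tested on simulated data. No 2 libraries were duplicates (smallest chi-square per degree of freedom within a group 39.8).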

Additional observations from a re-analysis of the deposited data

Results flagged for a closer look

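C5AR1 stood out by its log2 ratio of 12h to 0h, with a difference of −1.29 (PD minus GS, exact two-sided permutation p = 0.0159, unadjusted and the lowest of 14 tests). It was lower than 0 in 4 of 4 PD pigs and 5 of 5 GS pigs. Adjusted over all genes the interaction of group and time did not pass (adjusted p = 0.677, edgeR).

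In 70 groups of 4 or 5 values, 3 held a sample far from the others by Dixon's test, which by chance marks about 1 group in 20. CFB in PD pig 4 at 0h was at a log2 CPM of 2.04, where the other 3 PD pigs were between 5.66 and 6.04. SERPING1 in GS pig 17 was at 8.63 at 0h, with the other 4 GS pigs between 9.66 and 10.05, and at 8.88 at 12h, with the others between 10.28 and 10.51.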

How the results depend on the processing

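The tests of the members and of 5 other complement genes (C9, CD46, CD55, CD59 and MASP2) were recomputed under the alternatives that apply to each comparison, and those of C5, C5AR2, the inducers and the markers were not. In these tests no value that had passed changed sign: 231 stayed past the threshold and 76 did not. Of those that had not passed, 828 stayed, 25 came to pass and 78 changed sign, and the cause was not tested.

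The count of members past the test at 12h in GS was 0 with no replicate block (C5AR1 adjusted p = 0.185, SERPING1 0.376), 0 with all libraries in one fit and 0 at a fold of at least 2. In PD at 12h it was 0 with only the 2 time points (C5AR1 adjusted p = 0.111), and 1 between 12h and 6h with all libraries in one fit (C5AR1, 0.041). Leaving out 1 pig gave 0 to 3 members in GS and 0 to 1 in PD at 12h, and 2 to 5 at 0h, 2 to 5 at 6h and 1 to 5 at 12h between the groups. Without PD pig 4 at 0h and PD pig 2 at 12h, an alternative chosen after seeing the data, it was 5 at 12h between the groups. The C5AR1 difference in log2 ratio between groups lay between −1.45 and −1.08 with 1 pig left out. With no replicate block or all libraries in one fit the calls of C9, CD55 and CD59 in GS at 12h were also lost, and with only the 2 time points that of MASP2 in PD at 12h (adjusted p = 0.155) and of CD55 in GS (0.0535).

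The log2 values that changed sign, none past the test, were as follows. With DESeq2 it was 0.0071 for C3AR1 (GS 12h against 6h), and with its size factors 0.0059 for C3AR1 (GS 12h against 6h). With no filter on low counts it was 0.023 for C2 (PD 6h against 0h), 0.015 for CFI (PD 6h against 0h). With no replicate block it was −0.090 for CFI (GS 6h against 0h), 0.068 for C3AR1 (GS 12h against 6h), 0.056 for CFI (the PD against GS change at 6h). With only the 2 time points it was −0.25 for CFB (PD 12h against 6h), and with all libraries in one fit 0.0026 for C3AR1 (GS 12h against 6h). Without PD pig 4 at 0h and PD pig 2 at 12h it was −0.16 for CFB (PD 6h against 0h), −0.059 for CD59 (PD 6h against 0h), −0.28 for C2 (PD 12h against 0h), −0.068 for C2 (PD 12h against 6h), −0.12 for C3 (PD 12h against 6h), 0.022 for C3AR1 (PD 12h against 6h), 0.070 for CFI (PD 12h against 6h), 0.026 for C3 (the PD against GS change at 6h), −0.28 for CFB (the PD against GS change at 6h), −0.20 for C3 (PD against GS level at 0h). The range with 1 pig left out was as follows. In PD 6h against 0h it was −0.84 to 0.10 for C9, −0.24 to 0.10 for C2, −0.41 to 1.16 for CFB, −0.33 to 0.18 for CFI, −0.023 to 0.36 for CD59. In PD 12h against 0h it was −0.083 to 0.22 for C2, −0.70 to 1.43 for CFB, −0.90 to 0.32 for C3, −0.087 to 1.595 for C3AR1, −0.22 to 1.11 for C9. In PD 12h against 6h it was −0.049 to 0.15 for C2, −0.093 to 0.47 for C3, −0.56 to 0.22 for CFI, −0.39 to 0.47 for CFB. In the PD against GS change at 12h it was −1.27 to 0.86 for CFB, −0.22 to 0.17 for C2, −0.18 to 0.089 for SERPING1, −1.12 to 0.040 for C3. In the PD against GS change at 6h it was −0.51 to 1.06 for CFB, −0.37 to 0.16 for CFI, −0.70 to 0.048 for C3. In the PD against GS level at 12h it was −0.84 to 0.12 for C3. In the PD against GS level at 0h it was −0.20 to 0.45 for C3. In GS 6h against 0h it was −0.090 to 0.31 for CFB, −0.18 to 0.23 for CFI, −0.24 to 0.14 for C3. In GS 12h against 6h it was −0.17 to 0.018 for C2, −0.31 to 0.23 for C3AR1. In GS 12h against 0h it was −0.035 to 0.45 for C3, −0.91 to 0.080 for C3AR1, −0.0077 to 0.38 for CFI, −0.16 to 0.31 for C2.

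The count of all genes past the test in GS, 5295 at 6h and 7136 at 12h, was 1731 and 3083 with no replicate block and 1606 and 2883 with all libraries in one fit. At 6h it was 2720 without GS pig 44. In PD at 6h the 22 genes became 0 without pig 3, 4 or 5, 98 without pig 2 and 413 by DESeq2.

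Among the genes named, C3AR1 and C9 had as few as 6 and 2 counts in a library, and PD libraries were the shallower. The SE and p-values of the fits cover counting error and the spread between these pigs only.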
